A study of Mus musculus with 13 samples.

Results

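The genes described here are the 33 enzymes, carriers and associated proteins that break down fatty acids in mitochondria and peroxisomes, among 55357 genes counted in mouse brown adipose tissue (BAT). They were found by symbol in the deposited table of counts, all 33 were present, and 22 act in mitochondria and 11 in peroxisomes. BAT, the fat depot that produces heat, came from mice of 2 genotypes at 2 temperatures. KO mice (Stim1/2_Adp-Cre) had both Stim1 and Stim2, the calcium sensors of the endoplasmic reticulum, deleted by a Cre driven from the adiponectin promoter. Control mice (Stim1/2_fl/fl) carried the floxed alleles without Cre in their label. There were 4 KO libraries and 4 control libraries from mice held at 4 °C for 6 h (cold), and 3 KO libraries and 2 control libraries from mice at room temperature (RT). The adiponectin promoter drives Cre in adipocytes, so vessel, immune and other cells of the tissue keep both genes. The sources used here give neither age nor sex. They do not state that each library is a different animal, and the p-values below reflect the spread between libraries, which may be technical.

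Fatty acids entering a brown adipocyte are joined to coenzyme A, and long chains cross into mitochondria as carnitine esters through the carnitine palmitoyltransferases and a carrier. Each turn of beta-oxidation then dehydrogenates, hydrates, dehydrogenates again and cleaves off acetyl-CoA, and the electrons feed the respiratory chain that Ucp1 uncouples to make heat. Peroxisomes shorten very long, branched and dicarboxylic chains with their own enzymes and pass the products on as carnitine esters. Many of these genes are textbook targets of the nuclear receptor PPAR alpha and its coactivator PGC-1 alpha (Ppargc1a).

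The libraries held 1570684 to 2016178 counts each, of which the 33 genes together took 1.84% to 2.19%. Of the 33 genes 32 passed the filter on low counts and were tested. Levels are CPM, tag counts put on 1 common library size after a correction for composition. Each gene was sequenced as tags from the 3′ end of its mRNA, so isoforms with 1 common end are not separated. Stim1 and Stim2 were lower in every KO library than in every control library of the same temperature. Such a separation held for 6.53% of all tested genes in the cold and 7.96% at RT. By edgeR the log2 fold change in the cold was -0.45 for Stim1 (adjusted p = 0.0570, not passed) and -0.88 for Stim2 (adjusted p = 0.0382). At RT it was -0.90 for Stim1 (adjusted p = 0.349) and -0.59 for Stim2, and neither passed. Brown adipocyte markers summed to 14550 to 15490 CPM in KO cold and 17087 to 21583 CPM in control cold. At RT they summed to 8038 to 10055 CPM in KO and 9189 to 10426 CPM in control. In KO cold against control cold 1 of these 12 markers passed, Ppargc1a, which was lower (3.49% of all genes were). The log2 fold change was positive in 5 of the 12 and negative in 7. Ucp1 averaged 6641 CPM in KO cold, against 8741 CPM in control cold, and did not pass. Of the 20 skeletal muscle markers 18 were tested, and their summed level stood apart in some RT libraries, at 2374 CPM in KO RT 1, 1682 CPM in KO RT 2 and 3842 CPM in control RT 1. KO RT 3 held 237 CPM and control RT 2 held 134 CPM of them, against 72.8 to 563 CPM in KO cold and 55.3 to 442 CPM in control cold. In the cold against RT all 18 tested muscle markers had a negative log2 fold change in both genotypes. Of the 18, 12 passed in control and 3 in KO, where 12.6% and 9.45% of all genes passed as lower. Skeletal muscle also oxidises fat. The 3 RT libraries that stood apart in these markers were picked out after the data were seen. Leaving them out leaves 1 KO RT and 1 control RT library, so a fold change without them sets 4 cold libraries against 1 RT library, and its p assumes that the lone library varies as the cold groups do. Leaving out either control RT library likewise leaves 1 there, assumed to vary like the other groups. Calls of the members that depend on these libraries are given with and without them.

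The stretches upstream of 4 genes are shown. Ehhadh was higher in the cold, and Crot and Acaa1b were lower. Hadhb passed in no contrast and is shown because it shares with Hadha a stretch of 272 bases between their divergent starts. The sequences are RefSeq's, on build GRCm38.p6, 250 bases that end just before the annotated start, read 5′ to 3′ on the gene's strand. Capitals mark AGGTCA or CCAAT or GGGCGG on either strand. AGGTCA is the core element of PPAR alpha and related receptors, CCAAT the box bound by NF-Y, and GGGCGG the GC box bound by Sp1.
Hadhb (chr5:30155003-30155252, plus strand): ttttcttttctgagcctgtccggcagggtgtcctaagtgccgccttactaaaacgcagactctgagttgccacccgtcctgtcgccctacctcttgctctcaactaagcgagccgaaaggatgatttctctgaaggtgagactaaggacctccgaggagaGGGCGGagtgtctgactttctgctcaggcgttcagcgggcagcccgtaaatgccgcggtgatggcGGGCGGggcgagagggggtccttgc
Ehhadh (chr16:21787835-21788084, minus strand): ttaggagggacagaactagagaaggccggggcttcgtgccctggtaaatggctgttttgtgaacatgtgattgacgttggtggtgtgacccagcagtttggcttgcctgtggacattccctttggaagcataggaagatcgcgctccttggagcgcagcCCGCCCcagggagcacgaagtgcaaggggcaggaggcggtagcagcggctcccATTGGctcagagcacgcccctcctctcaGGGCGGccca
Crot (chr5:8997147-8997396, minus strand): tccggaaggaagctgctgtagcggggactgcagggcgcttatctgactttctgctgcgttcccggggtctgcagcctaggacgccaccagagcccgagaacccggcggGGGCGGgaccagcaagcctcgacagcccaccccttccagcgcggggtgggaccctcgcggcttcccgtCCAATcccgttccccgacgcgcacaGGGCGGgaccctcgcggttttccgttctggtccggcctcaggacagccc
Acaa1b (chr9:119157094-119157343, minus strand): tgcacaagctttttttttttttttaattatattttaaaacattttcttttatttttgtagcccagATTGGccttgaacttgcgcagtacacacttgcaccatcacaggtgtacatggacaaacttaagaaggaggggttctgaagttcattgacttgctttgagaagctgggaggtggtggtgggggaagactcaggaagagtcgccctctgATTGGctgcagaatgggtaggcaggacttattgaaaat
Acaa1b held no GC box and 41.6% G and C in this stretch, while the other 3 held a pair of GC boxes each and 58.8% (Hadhb), 60.4% (Ehhadh) and 69.6% (Crot) G and C. None of the 4 stretches held AGGTCA. RefSeq windows of 300 bases, 250 before and 50 after the start, matched 27 of the 33 genes in 29 windows. GGGCGG was in 21 of the 29 (72.4%), against 35.7% of all 32851 promoters in the table. CCAAT was in 12 (41.4%), against 37.4% of all promoters, and AGGTCA in 5 (17.2%), against 16.3%. The windows with AGGTCA belonged to Cpt1a, Acadvl, Acadm, Echs1 and Scp2. For Acadvl, Acadl, Acadm, Etfb, Acox3, Ehhadh and Scp2 the bases just after the start were in no GENCODE transcript of the gene. The start of these windows, and of the printed Ehhadh stretch, is thus less certain. No window held a direct repeat of AGGTCA with 1 base between (0.0396% of all promoters), the element TCAAGGTCA (0.423%) or TGACGTCA (1.79%). The motifs CCAAT and GGGCGG and TGACGTCA were added to the search after the data were seen, motifs were counted on both strands, and a match describes letters only. AGGTCA is contained in TCAAGGTCA and in the repeat.

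The comparison of cold with RT asks how the pathway's transcripts respond to thermogenic demand, in each genotype. In KO 14 of the 32 tested genes passed in the cold, where 18.9% of all 11073 tested genes passed. Of them 9 rose and 5 fell, beside 9.43% and 9.45% of all genes. In control 9 of the 32 passed, where 25.2% of all genes passed, so that the share was near the background. Of these 4 rose and 5 fell, beside 12.7% and 12.6% of all genes. The genes that fell were Abcd2, Acox3, Acaa1a, Acaa1b and Crot, all peroxisomal, and each of the 5 passed in both genotypes. Slc25a20, Etfdh, Ehhadh and Scp2 rose in both genotypes, and Acsl1, Acadvl, Hadha, Decr1 and Pex11a passed in KO and not in control. Log2 fold changes of the 11 peroxisomal genes ran from -1.78 to 1.27 in KO and from -1.83 to 1.71 in control. Those of the 21 tested mitochondrial genes ran from -0.24 to 0.52 in KO and from -0.46 to 0.54 in control. The median over the 32 genes was 0.10 in KO, beside -0.01 for all genes, and 0.04 in control, beside -0.02 for all genes. Scaling by library totals alone put the median of all genes at -0.12 in KO and -0.23 in control, that of the 32 genes at -0.01 in KO and -0.18 in control, and the calls at 6 higher and 6 lower in KO and 2 higher and 9 lower in control. All cold libraries lay above all RT libraries for 11 genes in KO (15.8% of all tested genes) and 7 in control (19.8%), and below them for 5 genes in KO (16.4%) and 5 in control (20.6%). Without the 3 libraries high in muscle markers, and so with 1 RT library in each genotype, 4 of the 32 genes passed in each genotype, 1 higher and 3 lower, beside 4.13% of all genes in KO and 7.72% in control. Muscle content and the loss of RT replicates cannot be told apart in these smaller counts. Of the 18 genes not called in KO 0 gained a call without those libraries, and of the 23 not called in control 1 did, Acadvl. The log2 fold changes of these genes then ran from -0.70 to 0.20 in KO and from -0.89 to 1.31 in control, and that of Acsl5 moved farthest in both genotypes. In bulk tissue, less RNA per cell and fewer cells of a type cannot be told apart. Of 8 fibroblast markers 5 fell in the cold in KO (561 to 655 CPM summed in KO cold, 683 to 1363 CPM in KO RT) and none of 8 passed in control, and their part in the results was not tested.

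**Figure D1:**
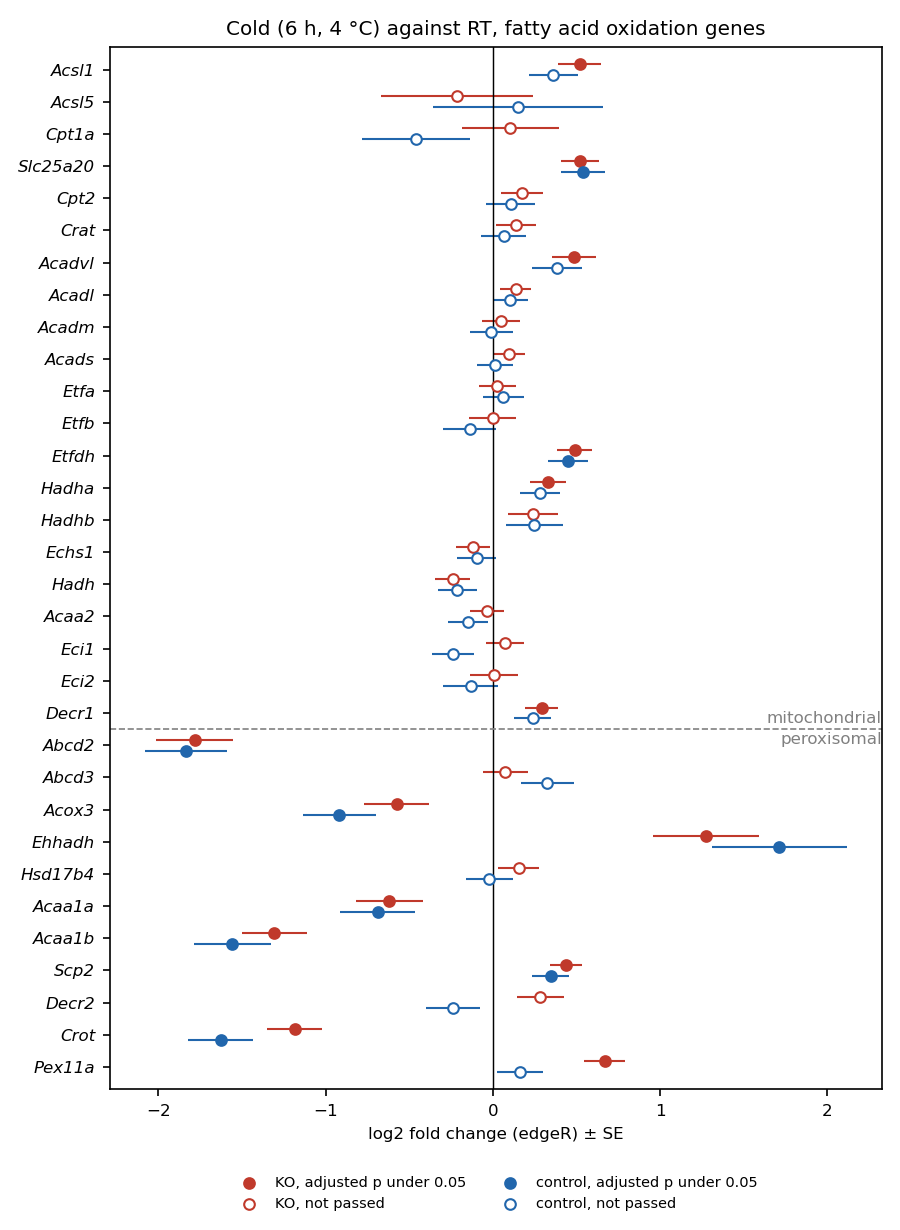
Log2 fold change (edgeR, x axis) of cold against RT for each of the 32 tested genes (rows), in KO (red) and control (blue), with bars of 1 standard error. Filled points have an adjusted p under 0.05. Abcd2, Crot and Acaa1b lie farthest to the left and Ehhadh farthest to the right in both genotypes, and the mitochondrial genes above the dashed line stay between -0.46 and 0.54.

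Among the peroxisomal genes that fell, Crot (chromosome 5) makes the octanoylcarnitine that leaves the peroxisome. Values are given in the order of the library numbers. Crot was at 31.2, 26.6, 27.6 and 25.96 CPM in KO cold libraries and 16.1, 23.5, 13.01 and 19.8 CPM in control cold libraries, and 63.8, 62.0 and 64.0 CPM in KO RT libraries and 62.5 and 48.8 CPM in control RT libraries. All cold libraries of each genotype were below all RT libraries of that genotype. The log2 fold change in the cold was -1.19 ± 0.17, adjusted p = 1.62e-04 in KO, and -1.63 ± 0.19, adjusted p = 3.59e-05 in control. Abcd2 (chromosome 15), a membrane transporter that brings very long acyl-CoA into the peroxisome, was at 41.6, 24, 24.8 and 24.8 CPM in KO cold libraries and 36.3, 46.3, 23.5 and 26.1 CPM in control cold libraries, and 92.2, 104 and 100.3 CPM in KO RT libraries and 92.4 and 146 CPM in control RT libraries. The cold and RT libraries did not overlap, and the control RT libraries differed among themselves by more than the 3 KO RT libraries did. Its log2 fold change was -1.78 ± 0.23, adjusted p = 7.66e-05 in KO and -1.83 ± 0.25, adjusted p = 8.44e-05 in control. Acaa1b (chromosome 9), a thiolase that performs the last cleavage, was at 36.7, 18.8, 25.3 and 29.3 CPM in KO cold libraries and 16.1, 19.8, 21.1 and 14.8 CPM in control cold libraries, and 74.0, 67.1 and 62.5 CPM in KO RT libraries and 61.6 and 44.0 CPM in control RT libraries. Its cold libraries lay below its RT libraries in both genotypes (log2 fold change -1.31 ± 0.19, adjusted p = 2.63e-04 in KO, and -1.56 ± 0.23, adjusted p = 1.87e-04 in control). Crot, Abcd2 and Acaa1b kept an adjusted p under 0.05 in both genotypes in every alternative run. With the 3 libraries high in muscle markers left out, and 1 RT library in each genotype, their log2 fold changes were -1.20 (Crot), -1.80 (Abcd2) and -1.19 (Acaa1b) in KO and -1.44 (Crot), -2.14 (Abcd2) and -1.29 (Acaa1b) in control.

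Acaa1a (chromosome 9), the other thiolase, was at 32.4, 60.5, 72.6 and 70.5 CPM in KO cold libraries and 47.2, 59.3, 52.7 and 53.6 CPM in control cold libraries, and 94.2, 83.8 and 94.5 CPM in KO RT libraries and 96.1 and 74.7 CPM in control RT libraries. Cold and RT libraries did not overlap, with KO cold 1 lowest (log2 fold change -0.62 ± 0.20, adjusted p = 0.0389 in KO, and -0.69 ± 0.23, adjusted p = 0.0345 in control). Acaa1a and Acaa1b are near-identical paralogs, so the split of tags between them is uncertain. The call of Acaa1a was lost when single libraries were left out. Its adjusted p was 0.0633 to 0.121 in KO without KO cold 1, KO cold 2 or any KO RT library, and 0.0521 to 0.302 in control without control cold 1, 3 or 4 or control RT 1. Acox3 (chromosome 5), the oxidase that opens the oxidation of branched chains, was at 63.0, 59.5, 64.1 and 110.0 CPM in KO cold libraries and 58.2, 68.6, 65.0 and 43.8 CPM in control cold libraries, and 118, 109 and 105 CPM in KO RT libraries and 118 and 105 CPM in control RT libraries. KO cold 4 stood among the RT libraries, so the KO groups overlapped, and the control groups did not. The fall was -0.58 ± 0.19, adjusted p = 0.0467 in KO and -0.92 ± 0.22, adjusted p = 0.00592 in control, as log2 fold change. In KO the call was lost without any 1 of 7 libraries, at adjusted p 0.0579 to 0.152 (control cold 1, KO cold 1, 2 or 3, or any KO RT library). In control it was lost without control RT 1 (adjusted p = 0.0705). Without the 3 libraries high in muscle markers, the log2 fold change of Acaa1a was -0.67, adjusted p = 0.235, in KO and -0.50, adjusted p = 0.353, in control, and that of Acox3 was -0.50, adjusted p = 0.405, in KO and -0.83, adjusted p = 0.106, in control. Only 1 RT library stood in each genotype for these fold changes.

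Ehhadh, Scp2 and Pex11a rose. Ehhadh (chromosome 16), the bifunctional enzyme that hydrates and dehydrogenates in the peroxisome and acts on dicarboxylic acids, was at 163, 133, 137 and 215 CPM in KO cold libraries and 111, 117, 45.8 and 133 CPM in control cold libraries, and 44.1, 52.8 and 103.4 CPM in KO RT libraries and 25.7 and 36.8 CPM in control RT libraries. The lowest KO cold library exceeded the highest KO RT library, and control cold 3 was the control cold library closest to control RT. The log2 fold change was 1.27 ± 0.32, adjusted p = 0.0101 in KO and 1.71 ± 0.40, adjusted p = 0.00574 in control. In KO its call was lost without KO RT 1 (adjusted p = 0.0658) or KO RT 2 (0.0522), and in control without control RT 1 (0.0933). Without the 3 libraries high in muscle markers the log2 fold change was 0.65, adjusted p = 0.435, in KO, and 1.46, adjusted p = 0.0739, in control. Scp2 (chromosome 4) encodes a peroxisomal thiolase and, from the same 3′ end, a sterol carrier protein, which the tags do not separate. It was at 429.6, 452, 435 and 502 CPM in KO cold libraries and 380.1, 382, 363 and 384 CPM in control cold libraries, and 337, 319.6 and 352 CPM in KO RT libraries and 291 and 303 CPM in control RT libraries. Every cold library was above every RT library of its genotype (log2 fold change 0.44 ± 0.10, adjusted p = 0.00462 in KO, and 0.35 ± 0.11, adjusted p = 0.0307 in control). The control call was lost without control cold 1, control RT 1 or control RT 2, at adjusted p 0.0505 to 0.210, when the control groups were fitted alone (0.125) and with library totals alone (0.365). Without the 3 libraries high in muscle markers the log2 fold change of Scp2 was 0.37 in KO and 0.31 in control. That run left 1 RT library in each genotype, and the call of Scp2 was lost in both.

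Pex11a (chromosome 7), which acts in the division of peroxisomes, was at 442, 447, 479.9 and 457 CPM in KO cold libraries and 369, 360.2, 300.4 and 404 CPM in control cold libraries, and 280.1, 336 and 246 CPM in KO RT libraries and 327 and 313 CPM in control RT libraries. KO cold stood above all other libraries, while control cold overlapped control RT. It rose in KO (log2 fold change 0.67 ± 0.12, adjusted p = 0.00132) in every alternative run, and did not pass in control (0.16 ± 0.14, adjusted p = 0.416). The difference between both responses was 0.50 ± 0.18 on the log2 scale and did not pass (adjusted p = 0.477). Hsd17b4 (chromosome 18), the second bifunctional enzyme of the peroxisome, was at 226, 205, 197 and 204 CPM in KO cold libraries and 165, 192, 155 and 141 CPM in control cold libraries, and 185, 169 and 207 CPM in KO RT libraries and 152 and 180.2 CPM in control RT libraries. Its cold and RT libraries overlapped in both genotypes (log2 fold change 0.15 ± 0.12, adjusted p = 0.420 in KO, and -0.02 ± 0.14, adjusted p = 0.930 in control). Abcd3 (chromosome 3), the membrane transporter of branched and dicarboxylic chains, averaged 640.0 ± 70.5 CPM in KO cold, 647 ± 91.9 CPM in control cold, 608 ± 87.8 CPM in KO RT and 516 ± 69.8 CPM in control RT. It ranged from 466 to 775 CPM over all libraries and did not pass in the cold in either genotype (log2 fold change 0.07 ± 0.14, adjusted p = 0.748 in KO, and 0.33 ± 0.16, adjusted p = 0.136 in control).

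**Figure D2:**
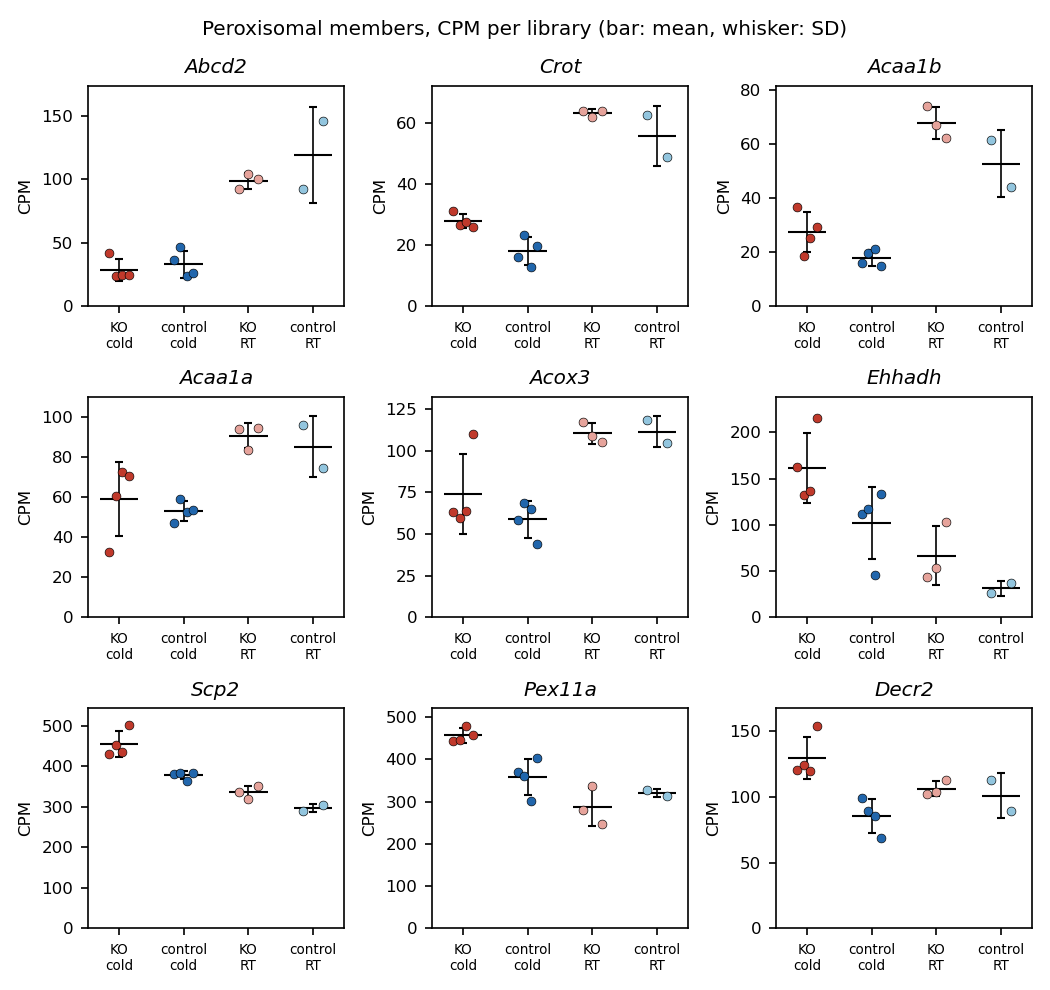
CPM (y axis, from 0) of 9 peroxisomal genes in each library (points) by group, with the mean as a bar and 1 SD as a whisker (n = 4 KO cold, 4 control cold, 3 KO RT and 2 control RT). By group mean, Abcd2, Crot and Acaa1b are lower in both cold groups than in both RT groups, and Ehhadh and Scp2 are higher. Single libraries of Ehhadh overlap, with control cold 3 below KO RT 2 and KO RT 3. Decr2 is highest in KO cold.

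On the mitochondrial side, activation and import hold Acsl1, Acsl5, the carnitine palmitoyltransferases, Slc25a20 and Crat. Acsl1 (chromosome 8), the main long-chain acyl-CoA synthetase of mouse fat, was at 3645, 4032, 3674 and 3388 CPM in KO cold libraries and 3327, 3415, 3551 and 3767 CPM in control cold libraries, and 2428, 2741 and 2543 CPM in KO RT libraries and 2099.5 and 3369 CPM in control RT libraries. KO cold lay above KO RT, whereas control RT 2 reached the level of control cold. Acsl1 rose in KO (log2 fold change 0.52 ± 0.13, adjusted p = 0.00982) and did not pass in control (0.36 ± 0.15, adjusted p = 0.0809). Without KO RT 1 the KO call was lost (adjusted p = 0.0550). Without control RT 2 the control log2 fold change was 0.74, set against control RT 1 alone, which is high in muscle markers (3842 CPM). Control RT 2 is low in these markers (134 CPM), and its Acsl1 level lay within the range of control cold. Slc25a20 (chromosome 9), the carrier that exchanges acylcarnitine for carnitine across the inner membrane, was at 723, 703, 734 and 631 CPM in KO cold libraries and 649, 709.9, 685 and 689 CPM in control cold libraries, and 426, 445 and 587 CPM in KO RT libraries and 464 and 477 CPM in control RT libraries. The cold libraries lay above the RT libraries of the same genotype. It rose in KO (log2 fold change 0.52 ± 0.11, adjusted p = 0.00444) and in control (0.54 ± 0.13, adjusted p = 0.00706). Without control RT 1 the control adjusted p was 0.0802. Without the 3 libraries high in muscle markers the log2 fold change was 0.25, adjusted p = 0.427, in KO, and 0.51, adjusted p = 0.0645, in control. For Acsl1 in KO it was then 0.54, adjusted p = 0.0535.

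Cpt1b (chromosome 15), the carnitine palmitoyltransferase of muscle and brown fat at the outer membrane, had 2 counts in KO RT 3 and 0 counts in the other 12 libraries, and was not tested. In the GENCODE annotation of build GRCm38, the last 500 exonic bases of Cpt1b all lie in exons of Gm44502 on the same strand, which also had 0 counts in every library. The effect of this overlap on the count was not tested, and counts near 0 are not read here as absence of the transcript. The neighbouring Chkb had 68 to 142 counts. Cpt1a (chromosome 19), the liver form, rested on 13 to 31 counts in a library and was at 13.5, 11.5, 12.9 and 7.34 CPM in KO cold libraries and 8.64, 9.89, 8.05 and 14.1 CPM in control cold libraries, and 11.1, 9.75 and 10.5 CPM in KO RT libraries and 9.66 and 18.7 CPM in control RT libraries. All groups overlapped, and no contrast passed (log2 fold change 0.11 ± 0.29, adjusted p = 0.839 in KO for cold against RT, and -0.46 ± 0.32, adjusted p = 0.317 in control). Cpt2 (chromosome 4), which turns the carnitine ester back into acyl-CoA inside, was at 257, 269, 255 and 306 CPM in KO cold libraries and 232, 265, 209 and 198 CPM in control cold libraries, and 223, 228 and 272 CPM in KO RT libraries and 226 and 194 CPM in control RT libraries. Its groups overlapped in the cold comparison (log2 fold change 0.17 ± 0.13, adjusted p = 0.366 in KO, and 0.11 ± 0.14, adjusted p = 0.631 in control). Crat (chromosome 2), which moves acetyl groups onto carnitine, was at 248, 280.2, 245 and 258 CPM in KO cold libraries and 241, 224, 178 and 186 CPM in control cold libraries, and 223, 235 and 245 CPM in KO RT libraries and 204 and 192 CPM in control RT libraries. It did not pass in the cold (log2 fold change 0.14 ± 0.12, adjusted p = 0.450 in KO, and 0.07 ± 0.14, adjusted p = 0.763 in control), and every KO library exceeded every control library of its temperature. Acsl5 (chromosome 19), a second acyl-CoA synthetase, spread widely within groups. It ranged over 59.0 to 234 CPM in KO cold, 91.8 to 324 CPM in control cold, 119 to 222 CPM in KO RT and 92.8 to 319.6 CPM in control RT, with log2 fold changes in the cold of -0.22 ± 0.46 in KO and 0.15 ± 0.51 in control.

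The acyl-CoA dehydrogenases take the first step of each turn and hand electrons to the transfer flavoprotein. Acadvl (chromosome 11), which acts on very long chains, was at 1171, 1128, 1182 and 1165 CPM in KO cold libraries and 882, 1172, 1059 and 1061 CPM in control cold libraries, and 891, 836 and 764 CPM in KO RT libraries and 965 and 634 CPM in control RT libraries. KO cold lay above KO RT, and control cold 1 fell between both control RT libraries. It rose in KO (log2 fold change 0.48 ± 0.13, adjusted p = 0.0162) and not past the threshold in control (0.38 ± 0.15, adjusted p = 0.0717). The KO call was lost without KO RT 3 (adjusted p = 0.0703) and with library totals alone (log2 fold change 0.37, adjusted p = 0.0507). It was also lost without the 3 libraries high in muscle markers (log2 fold change 0.61). In control the log2 fold change was 0.71, adjusted p = 0.0135, without control RT 1, and 0.71, adjusted p = 0.0238, without the 3 libraries high in muscle markers. Of the last 500 exonic bases of Acadvl, 82.0% overlap Dvl2 on the opposite strand, which had 11 to 33 counts in a library. Acadl (chromosome 1), for long chains, was at 2286, 2219, 2287 and 2414 CPM in KO cold libraries and 2144, 2177, 2049 and 2111 CPM in control cold libraries, and 1929, 2022 and 2323 CPM in KO RT libraries and 2105 and 1836 CPM in control RT libraries. Acadm (chromosome 3), for medium chains, was at 2067, 1841, 1865 and 1981 CPM in KO cold libraries and 1871, 2138, 1683 and 1744 CPM in control cold libraries, and 1844, 1650.3 and 2125 CPM in KO RT libraries and 2028 and 1715 CPM in control RT libraries. Neither passed in the cold, with log2 fold changes of 0.14 ± 0.09 (Acadl) and 0.05 ± 0.11 (Acadm) in KO and 0.11 ± 0.11 (Acadl) and -0.01 ± 0.13 (Acadm) in control. Acads (chromosome 5), for short chains, averaged 685 ± 45.1 CPM in KO cold, 631 ± 31.9 CPM in control cold, 640.2 ± 9.48 CPM in KO RT and 625 ± 49.7 CPM in control RT, and did not pass (0.10 ± 0.09 in KO, and 0.01 ± 0.11 in control).

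Etfdh (chromosome 3), which passes these electrons to ubiquinone, was at 782, 720.0, 789 and 722 CPM in KO cold libraries and 693, 733, 653 and 665 CPM in control cold libraries, and 494, 492 and 623 CPM in KO RT libraries and 517 and 488 CPM in control RT libraries. Every cold library exceeded every RT library of its genotype. It rose in KO (log2 fold change 0.49 ± 0.11, adjusted p = 0.00390) and in control (0.45 ± 0.12, adjusted p = 0.0127). The control call was lost without control RT 1 (adjusted p = 0.0720), without control RT 2 (0.0841), when the control groups were fitted alone (0.0562) and with library totals alone (0.1195). Without the 3 libraries high in muscle markers the log2 fold change was 0.27, adjusted p = 0.372, in KO, and 0.49, adjusted p = 0.0740, in control. The 2 subunits of the flavoprotein itself did not pass. Etfa (chromosome 9) averaged 835 ± 30.7 CPM in KO cold, 822 ± 102.6 CPM in control cold, 819.6 ± 93.1 CPM in KO RT and 786 ± 20.5 CPM in control RT, and Etfb (chromosome 7) 656 ± 29.4 CPM, 578 ± 96.4 CPM, 657 ± 64.5 CPM and 637 ± 163 CPM in the same groups. Their log2 fold changes in the cold were 0.03 ± 0.11 (Etfa) and -0.00 ± 0.14 (Etfb) in KO, and 0.06 ± 0.13 (Etfa) and -0.14 ± 0.16 (Etfb) in control.

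Hydration, the second dehydrogenation and cleavage of long chains are carried out by the trifunctional protein of Hadha and Hadhb (both chromosome 5). Hadha was at 1100.4, 971, 1000.2 and 1080.2 CPM in KO cold libraries and 976, 1025, 906 and 949 CPM in control cold libraries, and 781, 752 and 941 CPM in KO RT libraries and 859 and 726 CPM in control RT libraries. Cold libraries lay above RT libraries of the same genotype, and the call passed in KO (log2 fold change 0.33 ± 0.11, adjusted p = 0.0387) and not in control (0.28 ± 0.12, adjusted p = 0.09999). The KO call was lost without any 1 of KO cold 1, 3 or 4 or KO RT 1 or 2, at adjusted p 0.0611 to 0.160, with library totals alone (0.127), and without the 3 libraries high in muscle markers (0.14, adjusted p = 0.676). Hadhb was at 719.7, 669, 620.5 and 749 CPM in KO cold libraries and 687, 774, 669.7 and 736 CPM in control cold libraries, and 406, 651 and 694 CPM in KO RT libraries and 563 and 644 CPM in control RT libraries. KO RT 1 was low among the KO RT libraries, the KO groups overlapped and the control groups did not, and no call passed (log2 fold change 0.24 ± 0.15, adjusted p = 0.281 in KO, and 0.25 ± 0.17, adjusted p = 0.299 in control). For shorter chains, Acaa2 (chromosome 18), the thiolase, was at 1278, 1296, 1257 and 1147 CPM in KO cold libraries and 1142, 1419, 1121 and 1256 CPM in control cold libraries, and 1174, 1254 and 1397 CPM in KO RT libraries and 1322 and 1412 CPM in control RT libraries. Echs1 (chromosome 7), the hydratase, averaged 556 ± 34.3 CPM in KO cold, 561 ± 47.5 CPM in control cold, 604 ± 47.4 CPM in KO RT and 600.1 ± 22.8 CPM in control RT. Hadh (chromosome 3), the dehydrogenase, averaged 1193 ± 86.0 CPM in KO cold, 1122 ± 128 CPM in control cold, 1408 ± 86.9 CPM in KO RT and 1299.5 ± 23.5 CPM in control RT. None of the 3 passed in the cold, with log2 fold changes of -0.03 ± 0.10 (Acaa2), -0.12 ± 0.10 (Echs1) and -0.24 ± 0.10 (Hadh) in KO and -0.15 ± 0.12 (Acaa2), -0.10 ± 0.12 (Echs1) and -0.21 ± 0.12 (Hadh) in control. With library totals alone all 3 were called lower in control, and Hadh in KO.

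Unsaturated chains need isomerases and a reductase. Decr1 (chromosome 4), the mitochondrial 2,4-dienoyl-CoA reductase, was at 911, 819.6, 853 and 841 CPM in KO cold libraries and 779.8, 821, 732 and 726 CPM in control cold libraries, and 668, 646 and 782 CPM in KO RT libraries and 665 and 632 CPM in control RT libraries. Cold libraries lay above RT libraries of the same genotype, and Decr1 passed in KO (log2 fold change 0.29 ± 0.10, adjusted p = 0.0476) and not in control (0.24 ± 0.11, adjusted p = 0.133). Its KO call, with the largest adjusted p of the 14, was lost in 9 of the 13 fits that left out 1 library (adjusted p 0.0502 to 0.181), and its log2 fold change was 0.13, adjusted p = 0.706, without the 3 libraries high in muscle markers. The KO call of Decr1 was also lost with library totals alone (log2 fold change 0.18, adjusted p = 0.172). The isomerase Eci1 (chromosome 17) averaged 710.2 ± 33.1 CPM in KO cold, 582 ± 82.0 CPM in control cold, 675 ± 60.8 CPM in KO RT and 686 ± 18.9 CPM in control RT. Eci2 (chromosome 13), an isomerase found in mitochondria and peroxisomes, averaged 87.8 ± 7.97 CPM in KO cold, 68.6 ± 9.65 CPM in control cold, 87.4 ± 14.1 CPM in KO RT and 75.3 ± 3.39 CPM in control RT. Neither passed in the cold, at 0.07 ± 0.11 (Eci1) and 0.01 ± 0.14 (Eci2) in KO and -0.24 ± 0.13 (Eci1) and -0.13 ± 0.17 (Eci2) in control. Without control cold 2, Eci1 was called lower in control (-0.34, adjusted p = 0.0396).

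**Figure D3:**
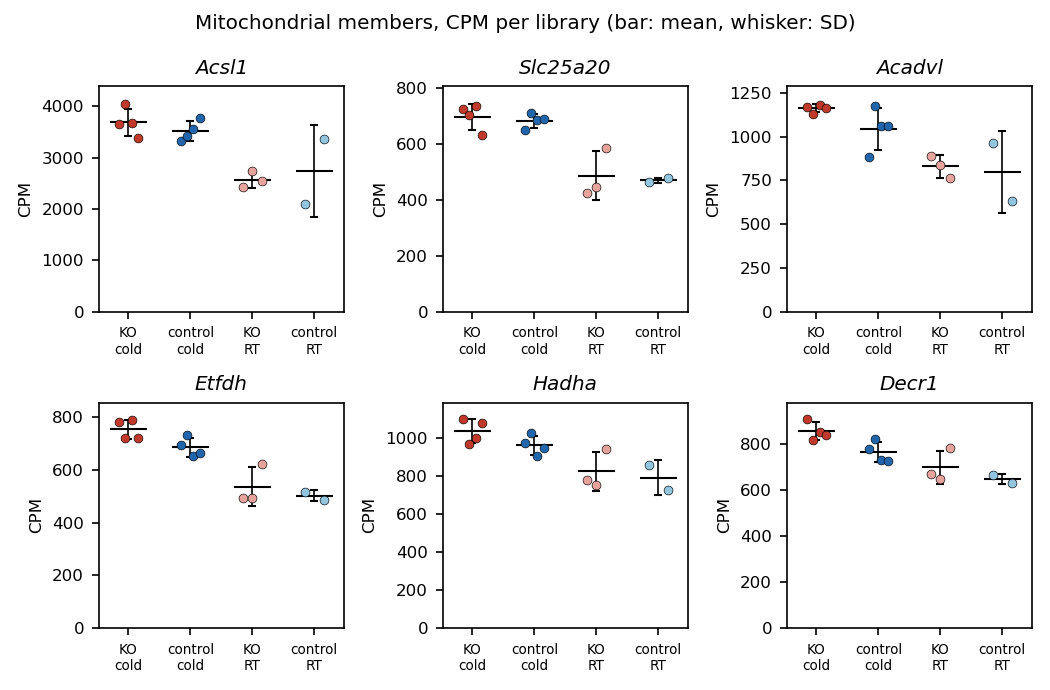
CPM (y axis, from 0) of the 6 mitochondrial genes called in the cold, in each library (points) by group, with the mean as a bar and 1 SD as a whisker (n = 4 KO cold, 4 control cold, 3 KO RT and 2 control RT). Slc25a20 and Etfdh are higher in both cold groups than in both RT groups, and for Acsl1 and Acadvl the 2 control RT libraries lie far apart.

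The comparison of KO with control in the cold asks whether the loss of both calcium sensors alters the pathway under demand. Of the 32 genes 1 passed, where 5.93% of all tested genes passed. It rose and 0 fell, beside 2.44% and 3.49% of all genes. The gene was Decr2 (chromosome 17), the peroxisomal 2,4-dienoyl-CoA reductase, which was at 121, 125, 119.8 and 154 CPM in KO cold libraries and 99.6, 89.6, 85.5 and 68.5 CPM in control cold libraries, and 102, 104 and 113 CPM in KO RT libraries and 113 and 89.2 CPM in control RT libraries. Every KO cold library exceeded every control cold library, and KO cold 4 stood above the other 3 (log2 fold change 0.59 ± 0.13, adjusted p = 0.0159). Without KO cold 4 the log2 fold change was 0.50, adjusted p = 0.0550. In the cold against RT, Decr2 did not pass, at 0.28 ± 0.14 in KO and -0.24 ± 0.16 in control.

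The other 31 genes did not pass in this comparison, and 11 of the 32 had an unadjusted p under 0.05, beside 2224 of all 11073 tested genes. The log2 fold change was positive in 27 of the 32 and its median was 0.15, beside -0.01 for all genes. Among the 11 peroxisomal genes 9 were positive with a median of 0.35, and among the 21 mitochondrial genes 18 were positive with a median of 0.12. In 8 genes every KO cold library exceeded every control cold library and in 0 every one was lower (6.28% and 6.53% of all tested genes), namely Crat, Acadl, Eci2, Hsd17b4, Scp2, Decr2, Crot and Pex11a. Crot averaged 27.8 ± 2.35 CPM in KO cold, against 18.1 ± 4.53 CPM in control cold and missed the threshold (log2 fold change 0.62 ± 0.18, adjusted p = 0.0502). It was called without control cold 2 (0.0258), without control RT 1 (0.0458) and without control RT 2 (0.0460). Pex11a averaged 456 ± 16.7 CPM in KO cold, against 358 ± 43.0 CPM in control cold (log2 fold change 0.35 ± 0.11, adjusted p = 0.0784). Scp2 averaged 455 ± 33.03 CPM, against 377 ± 9.72 CPM (log2 fold change 0.27 ± 0.09, adjusted p = 0.0859) and Hsd17b4 208 ± 12.7 CPM, against 163 ± 21.3 CPM (log2 fold change 0.35 ± 0.12, adjusted p = 0.0880) in the same groups. Acaa1b stood at 0.60 ± 0.21 and Ehhadh at 0.67 ± 0.28, with adjusted p of 0.105 and 0.189, and their libraries overlapped. With library totals alone 7 genes were called higher and the median of all genes was 0.09. The largest negative value was that of Acsl5 (log2 fold change -0.76 ± 0.42, adjusted p = 0.336). Summed macrophage markers were at 127 to 167 CPM in KO cold and 119 to 340.4 CPM in control cold and fibroblast markers at 561 to 655 CPM in KO cold and 518 to 1494 CPM in control cold, and none of the 10 and 8 tested passed. All 10 macrophage markers (median log2 fold change -0.53) and all 8 fibroblast markers (median -0.60) had a negative fitted log2 fold change. Hepatocyte markers summed to 160 to 353 CPM in KO cold and 89.2 to 144 CPM in control cold, with no overlap, and to 172 to 367 CPM in KO RT and 91.04 to 134 CPM in control RT, with no overlap. Of the 7 found, Cyp2e1, which is not limited to liver, held nearly all of that sum at 141 to 722 counts in a library and was the 1 tested (it did not pass), while Apoa1, Ttr and Fgb had 0 counts in every library and Alb at most 2. The part of these markers in the members' values was not tested.

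**Figure D4:**
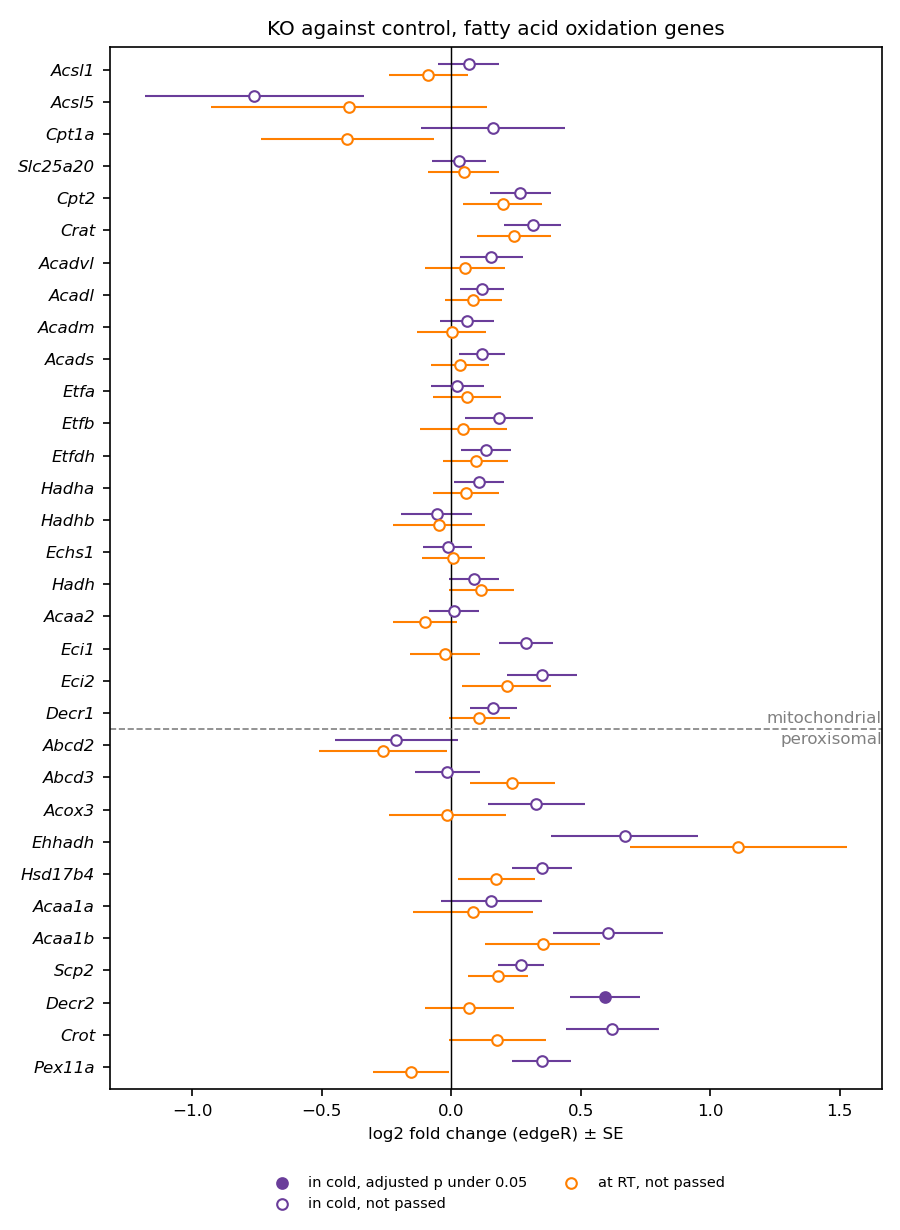
Log2 fold change (edgeR, x axis) of KO against control for each of the 32 tested genes (rows), in the cold (purple) and at RT (orange), with bars of 1 standard error. The filled point, Decr2 in the cold, is the 1 with an adjusted p under 0.05, and 27 of the 32 values in the cold lie right of 0.

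At RT, KO against control passed for 0 of the 32 genes (0.00% of all tested genes, 0 in all by edgeR and 3 by DESeq2), with 1 unadjusted p under 0.05 among the 32 and 346 among all genes, and DESeq2 called 0 of the 32. That 1 gene was Ehhadh, at 44.1 to 103.4 CPM in KO RT and 25.7 to 36.8 CPM in control RT (log2 fold change 1.11 ± 0.42, adjusted p = 1.0). Its groups did not overlap, and KO RT 3 was the highest. The median over the 32 genes was 0.06, and 0.28 without the 3 libraries high in muscle markers, which sets 1 KO RT library against 1 control RT library, with 0 genes called. With 3 against 2 libraries the groups did not overlap for 5 genes (Crat, Hadh, Ehhadh, Acaa1b and Scp2), all higher in KO, beside 8.68% of all tested genes higher and 7.96% lower. The difference between the cold responses of KO and control passed for 0 of the 32 genes with edgeR and DESeq2 (0.0181% of all tested genes passed, 2 of them), and 2 of the 32 had an unadjusted p under 0.05. These were Pex11a, given above, and Decr2 (log2 difference 0.52 ± 0.22, adjusted p = 0.537). So the genes called in the cold in KO and not in control are not shown to respond differently between the genotypes.

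The wider pathway was read from lists whose members do not include the 33 genes. The lists were chosen with earlier results of these data known, so their shares beside those of all genes are descriptive only. Of 24 tested regulators of fatty acid oxidation 1 rose and 3 fell in KO cold against control cold (4.17% and 12.5%, beside 2.44% and 3.49% of all genes). Ppargc1a, the coactivator, averaged 389 ± 132 CPM in KO cold, against 1678 ± 690.2 CPM in control cold (log2 fold change -2.11 ± 0.42, adjusted p = 0.00714). Perm1, known from muscle as a regulator of oxidative genes, was also lower (-1.33 ± 0.21, adjusted p = 0.00119), as was Prkaa1, a catalytic subunit of AMP kinase (-0.61 ± 0.13, adjusted p = 0.0122). Ppara, the nuclear receptor of the pathway, was higher, with overlapping libraries, at 248 ± 60.1 CPM in KO cold, against 142 ± 35.0 CPM in control cold (0.81 ± 0.18, adjusted p = 0.0145). In the cold against RT 5 regulators rose and 1 fell in each genotype (20.8% and 4.17%, beside 9.43% and 9.45% of all genes in KO and 12.7% and 12.6% in control). In KO 2 rose and 0 fell, and in control 4 rose and 0 fell, without the 3 libraries high in muscle markers. Mlycd, which removes the malonyl-CoA that inhibits carnitine palmitoyltransferase, rose in KO (log2 fold change 0.97 ± 0.14, adjusted p = 1.82e-04) and in control (0.97 ± 0.16, adjusted p = 4.55e-04), as did Perm1 and the factor Klf15. Ppara fell in the cold in control, from a mean of 248 to 142 CPM (-0.80 ± 0.21, adjusted p = 0.0120). Its control call was lost without the 3 libraries high in muscle markers, which leaves 1 control RT library. In KO Ppara did not pass (-0.22 ± 0.19, adjusted p = 0.442). Ppargc1a rose in control (2.26 ± 0.56, adjusted p = 0.00767) and did not pass in KO (0.95 ± 0.46, adjusted p = 0.165). The control RT libraries of Ppargc1a lay far apart, at 128 and 577 CPM, against 1114 to 2677 CPM in control cold. The difference between responses passed for neither (adjusted p = 0.618 for Ppara and 0.652 for Ppargc1a). Esrrb rested on 2 to 13 counts in KO cold, 6 to 18 in control cold, 1 to 2 in KO RT and 1 in each control RT library.

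Of 33 further peroxisomal genes 5 rose and 0 fell in KO cold against control cold (15.2% higher, beside 2.44% of all genes). Pex11g, a relative of Pex11a in peroxisome division, averaged 32.96 ± 2.92 CPM in KO cold, against 13.6 ± 2.99 CPM in control cold (log2 fold change 1.26 ± 0.17, adjusted p = 4.05e-04). Ephx2, an epoxide hydrolase (0.71 ± 0.12, adjusted p = 0.00211), Amacr, the racemase of branched acyl-CoA (1.01 ± 0.20, adjusted p = 0.00564), and Cat, catalase (0.52 ± 0.13, adjusted p = 0.0257), were also higher in KO cold. In the cold against RT 6 rose and 6 fell in KO (18.2% each, beside 9.43% and 9.45% of all genes). In control 2 rose and 5 fell (6.06% and 15.2%, beside 12.7% and 12.6%), which is below the background for the genes that rose and near it for those that fell. In KO 0 rose and 1 fell, and in control 2 rose and 3 fell, without the 3 libraries high in muscle markers. Slc25a17, a peroxisomal carrier of coenzyme A and other nucleotides, rose in KO (log2 fold change 0.98 ± 0.17, adjusted p = 8.89e-04) and in control (1.39 ± 0.20, adjusted p = 1.59e-04). Pecr, an enoyl-CoA reductase, fell in control (-1.86 ± 0.32, adjusted p = 6.27e-04), and Pxmp2, a membrane channel, in KO (-1.31 ± 0.23, adjusted p = 0.00103).

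Of 27 other enzymes and carriers 3 rose and 3 fell in KO cold against control cold (11.1% each, beside 2.44% and 3.49% of all genes), among them Acss1, a mitochondrial acetyl-CoA synthetase (lower, -1.09 ± 0.15, adjusted p = 4.39e-04), Mcee, the methylmalonyl-CoA epimerase (lower, with overlapping libraries, -1.04 ± 0.20, adjusted p = 0.00589), and Hsd17b10, a mitochondrial dehydrogenase (higher, 0.60 ± 0.14, adjusted p = 0.0216). In the cold against RT 4 rose and 1 fell in KO (14.8% and 3.70%, beside 9.43% and 9.45%) and 5 rose and 3 fell in control (18.5% and 11.1%, beside 12.7% and 12.6%), and 1 rose in KO and 3 rose in control without the 3 libraries high in muscle markers. Fabp3, a fatty acid carrier of the cytosol, averaged 805 ± 87.4 CPM in KO cold, against 337 ± 75.8 CPM in KO RT (log2 fold change 1.26 ± 0.19, adjusted p = 2.59e-04). It averaged 1123 ± 70.8 CPM in control cold, against 568 ± 239 CPM in control RT (0.99 ± 0.21, adjusted p = 0.00310). Of 15 PPAR targets outside oxidation 4 rose and 1 fell in KO cold against control cold (26.7% and 6.67%, beside 2.44% and 3.49%). Ucp3, an inner membrane carrier (log2 fold change 0.9998 ± 0.16, adjusted p = 0.00103), Slc27a1, a fatty acid transporter (1.09 ± 0.24, adjusted p = 0.0144), and Angptl4, an inhibitor of lipoprotein lipase (0.89 ± 0.20, adjusted p = 0.0170), were higher, and Gk, glycerol kinase, was lower (-0.76 ± 0.18, adjusted p = 0.0214). In the cold against RT 8 of the 15 rose and 0 fell in KO (53.3% higher, beside 9.43%) and 6 rose and 1 fell in control (40% and 6.67%, beside 12.7% and 12.6%), and 3 rose in each genotype without the 3 libraries high in muscle markers, with Gk at 2.20 ± 0.21 in KO and 2.06 ± 0.25 in control. Fgf21 had 2 to 75 counts in KO cold, 3 to 97 in control cold, at most 1 in KO RT and 0 in both control RT libraries. At RT, KO against control passed for 0 genes of these 4 lists with edgeR, and the difference between cold responses passed for 0.

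Summed over the 33 genes, the level was 21785 to 22430 CPM in KO cold, 19708 to 22367 CPM in control cold, 18228 to 20972 CPM in KO RT and 18909 to 18998 CPM in control RT. As a plain share of all counts, with no scaling for composition, the genes held 2.14% to 2.19% in KO cold, 1.84% to 1.98% in control cold, 1.97% to 2.16% in KO RT and 1.99% to 2.04% in control RT. Control cold was thus above control RT on the scaled level and below it on the share of counts, while KO cold was above control cold in its mean on both. Scaling factors were 0.981 to 1.004 in KO cold, 0.889 to 0.970 in control cold, 1.04 to 1.09 in KO RT and 1.056 to 1.089 in control RT. The peroxisomal genes alone summed to 2245 to 2331 CPM in KO cold and 1753 to 2133 CPM in control cold, with no overlap, and to 1955 to 2156 CPM in KO RT and 1807 to 1904 CPM in control RT. Transcripts encoded by the mitochondrial genome made up 10.1% to 11.5% of counts in KO cold, 10.6% to 13.4% in control cold, 9.72% to 10.5% in KO RT and 9.43% to 11.1% in control RT.

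**Figure D5:**
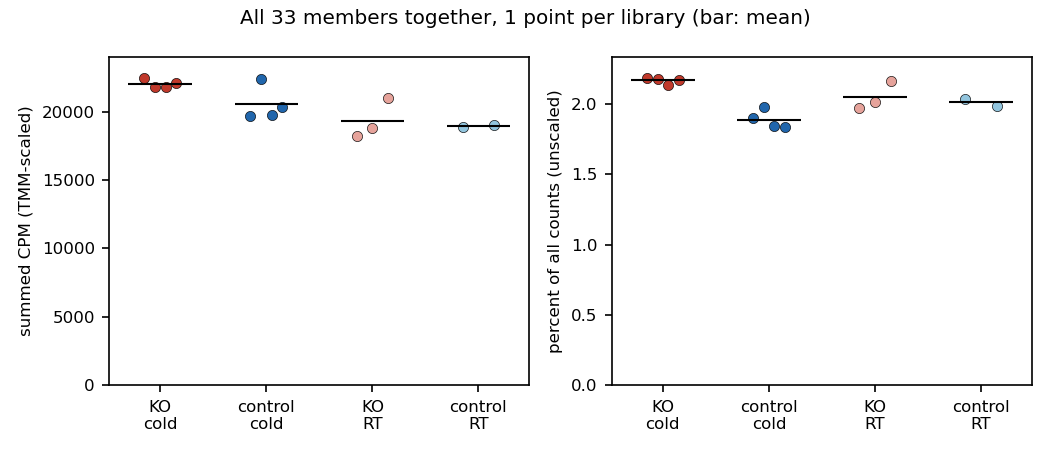
Summed level of the 33 genes in each library (points) by group with the group mean as a bar, as CPM scaled for composition (left) and as percent of all counts without scaling (right), both axes from 0. Control cold lies above control RT on the left and below it on the right.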

How the data were processed

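RNA of 13 brown fat libraries was counted as 3′ tags made with a QuantSeq kit, per the labels' protocols. The authors deposited raw counts per gene of Ensembl release 103 with no scaling, per the file headers and the table's name. STAR 2.7.10b, HTSeq 0.12.3, Trim Galore 0.6.7, UMI-tools 1.1.2, limma, edgeR and build GRCm39 appear in the submitters' processing notes without their roles. The use of strand, and any collapse of tags by molecular identifier, is not given in the sources used here, so a gene is not separated from an overlapping antisense partner. Of 55632 lines, 275 repeated an identifier and were dropped. In R 4.3.3, genes passing filterByExpr (minimum count 10; 11073 genes) received TMM scaling factors (trimmed mean of M values) and were fitted with edgeR 4.0.16 (quasi-likelihood, 1 coefficient for each of the 4 groups, 5 contrasts, two-sided). Adjusted p is Benjamini-Hochberg over all tested genes, and genes under 0.05 are called. Fold changes are log2 ± standard error, CPM are computed here from counts and TMM-scaled totals, and means are ± SD. The common biological coefficient of variation was 16.1%. The fit was tested on simulated data. No library pair of a group agreed within sampling noise. Values in every library are given for each gene called in any contrast and, called or not, for the main import, dehydrogenase, trifunctional and peroxisomal genes, and up to 4 called genes with the smallest p are named from each other list. The members and lists were chosen with earlier results of these data known. Alternatives were relative log expression scaling, library totals alone, no filter, mean CPM of at least 5, DESeq2 1.42.0, the compared groups alone, omission of mitochondrial genome genes, a replicate block, and omission of each library in turn or of the 3 libraries whose summed muscle markers exceeded 1000 CPM. Library totals alone and the omission of those 3 libraries were chosen after seeing the data. Replicate numbers are shared between groups but the labels tie them to no animal, litter or day. Overlaps of exons were read from a GENCODE annotation of build GRCm38, which is not the build of the counts, so no gene coordinates are given other than those of the RefSeq sequences.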

Additional observations from a re-analysis of the deposited data

Results flagged for a closer look

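In 64 sets of 4 libraries (each tested gene in each cold group), the highest or lowest library was compared with the other 3, and chance alone marks about 1 in 20 such sets. In 3 sets 1 library stood apart. Abcd2 was at 41.6 CPM in KO cold 1, against at most 24.8 CPM in the other KO cold libraries. Acox3 was at 110.0 CPM in KO cold 4, against 59.5 to 64.1 CPM in the other 3. Decr2 was at 154 CPM in KO cold 4, against 120 to 125 CPM in the other 3.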

How the results depend on the processing

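No value of the 33 genes changed sign as a called result under any alternative run. In KO against control in cold the count of called genes, 1, became 3 with no filter on low counts (2 higher, and Acsl5 lower), 2 with a mean CPM of at least 5 (Crot added), 2 with DESeq2 (Scp2 added), 2 without mitochondrial genome genes (Crot added) and 7 with library totals only. At RT it was 0 and became 1 with no filter (Ehhadh, adjusted p = 4.22e-04). Without the libraries high in muscle markers (1 RT library left in each genotype) the counts were 4 in control and 4 in KO for cold against RT, against 9 and 14. Leaving out 1 library at a time gave 0 to 4 called genes in KO against control in cold (4 without control cold 2, 0 without KO cold 4), 0 to 0 at RT, 8 to 14 in KO and 4 to 10 in control for cold against RT (8 without KO RT 1, 9 without KO RT 2, 4 without control RT 1), and 0 to 0 for the difference. Single calls lost with no filter were Scp2 in control and Hadha and Decr1 in KO. The replicate block gave 1, 0, 11 in KO, 8 in control and 0. Calls lost with the block were Scp2 in control (adjusted p = 0.0959), and Hadha (0.0872), Decr1 (0.0835) and Acox3 (0.0600) in KO. Same-numbered libraries did not deviate together throughout (correlations of -0.227 to 0.333), so the numbers were not taken as pairs. Over all genes, no filter gave 50 calls at RT and 133 for the difference, DESeq2 3 and 29, the control groups fitted alone 1683 for cold against RT (2793 otherwise), and omission of the muscle-high libraries 855 in control, 457 in KO (2090 otherwise) and 0 for the difference (2 otherwise). The causes were not tested. Low depth limits Cpt1a (13 to 31 counts). Cpt1b had 0 to 2 counts, and the part of depth and of its overlap with Gm44502 in this was not tested.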
